A study of Sus scrofa with 64 samples.

Results

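Solute carriers are membrane proteins that carry small molecules across the plasma membrane or across the membranes of organelles such as the mitochondrion, as cotransporters that use a sodium or proton gradient, as exchangers, or as facilitative carriers that follow a concentration gradient. Their symbols begin with SLC, then give a family number, and families tend to share a substrate: SLC2 and SLC5 hold sugar transporters, SLC1 glutamate transporters, SLC7 and SLC38 amino acid transporters, SLC25 the carriers of the inner mitochondrial membrane, and SLC30 and SLC39 zinc transporters. Classic textbook examples are glucose uptake by the small intestine, bile acid uptake by hepatocytes and the clearance of glutamate by astrocytes. All probes of the porcine array whose gene symbol starts with SLC and a number were taken here, apart from 1 gene not reported, which gave 180 of the 23935 probes analysed. Of these, 175 carry 1 symbol and stand for 119 genes, while 5 probes list several gene entries and are counted but not named. In 3 of the 119 genes the symbol names a partner or regulator of a transporter rather than a transporter (SLC9A3R1, SLC9A3R2 and SLC2A4RG). The other genes were sorted by transported substrate into 17 groups.

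The RNA came from 16 tissues of 4 pigs, hybridised to 64 arrays, 1 per tissue and animal. The animals were a Large White male of 38.8 kg and a Large White female of 36.2 kg, both 87 days old, and an Iberian female of 32.8 kg and an Iberian male of 25.4 kg, both 89 days old; none was treated, and all received the same diet. Tissues were liver, stomach, ileum, blood, the muscles diaphragm and Biceps femoris, back and abdominal fat, hypothalamus, olfactory bulb, and the endocrine pineal and thyroid glands, adrenal cortex and medulla, adenohypophysis and neurohypophysis, and per the study's methods the stomach and ileum samples were epithelium and the adrenal layers were parted by hand. Each tissue thus has 4 arrays, breed and sex are each carried by 2 animals a side, and every level below is a log2 value, on which a difference of 1 is a 2-fold difference.

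The arrays were checked against marker genes and control probes before the transporters were read. Of 69 entries in the lists of tissue marker genes with a probe, 65 were called higher in their own tissue. Some genes stand in the lists of 2 tissues. The exceptions were NPY in olfactory bulb, AGRP in hypothalamus, GFAP in neurohypophysis and HBB in blood. A call, defined below, is against the mean of the other tissues, so a called gene can be highest elsewhere. All 5 stomach and all 6 liver genes were highest in their own tissue. All 4 abdominal fat genes were highest in back fat, CARTPT of hypothalamus in olfactory bulb and CHGB of adrenal medulla in adenohypophysis. No olfactory bulb gene was highest there: CALB2 was highest in hypothalamus and NPY in blood. The Large White male's pineal gland stood apart: its mean over 6 glia and myelin genes was 9.40 against 6.81 to 7.14 on the other 3 pineal arrays, and its mean over 2 pineal genes was 5.60 against 8.65 to 9.80. The mean over 5 adrenal cortex genes overlapped between the adrenal medulla arrays (10.7 to 11.2) and those of the cortex (10.9 to 11.5). On the stomach array of the Iberian female the 5 stomach genes averaged 11.78 against 12.61 to 12.95 on the other 3, and the 4 ileum genes 4.57 against 3.40 to 4.03. The 64 reporter controls of the array, designed for foreign marker genes and read here as a guide to background, averaged 3.81 in blood and 3.61 in Biceps femoris against 3.06 to 3.36 in the other tissues, and among the Biceps femoris arrays that of the Iberian female gave the highest mean, 3.84. In whole tissue, fewer cells of a type and less RNA per cell cannot be told apart.

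The question of the design was how far each transporter's messenger RNA differed from tissue to tissue. Each tissue was compared with the mean of the other 15 by limma, and a probe was called where the Benjamini-Hochberg adjusted p over all 23935 probes was under 0.05 and the difference was at least 1 log2 unit. At least 1 tissue was called higher for 131 of the 180 transporter probes (72.8%), beside 54.6% of all probes, and at least 1 was called lower for 76 (42.2%), beside 35.9%. No tissue was called for 44 transporter probes (24.4%), beside 38.4% of all probes. Between the highest and the lowest tissue mean, transporter probes spanned a median of 2.24 log2 units, from 0.51 to 7.93, where the median over all probes was 1.74. Of the variation over the 64 arrays, a median of 86.9% lay between tissues for the transporters and 81.5% for all probes. At the low end, 22 transporter probes had no tissue mean above 4.89, the 95th percentile of the reporter controls, and give little information on any tissue.

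Liver had the most transporter probes called higher, 36 of 180 beside 7.72% of all probes, with 15 called lower beside 8.26%. Next came blood with 32 higher (15.1% of all probes) and 29 lower (17.3%), hypothalamus with 24 (8.92%) and 9 (4.94%), olfactory bulb with 22 (8.73%) and 15 (5.81%), and ileum with 22 (7.93%) and 9 (7.34%). Stomach had 19 higher (5.17%) and 7 lower (4.33%), thyroid gland 16 (6.59%) and 15 (4.5%), adrenal cortex 16 (5.05%) and 13 (4.5%), pineal gland 16 (7.87%) and 11 (5.17%), and adrenal medulla 13 (5.03%) and 11 (3.37%). Muscle had more transporter probes lower than higher. In Biceps femoris 16 were higher (8.89%, beside 7.24% of all probes) and 24 lower (13.3%, beside 11.7%), so all probes leaned the same way there. In diaphragm 12 were higher (6.67%, beside 6.81%) and 23 lower (12.8%, beside 6.96%). Lower calls also outnumbered higher ones in back fat with 13 (6.14%) and 16 (4.57%), abdominal fat with 7 (5.84%) and 13 (3.96%) and adenohypophysis with 9 (6.19%) and 11 (4.79%). Neurohypophysis had 12 higher (5.67%) and 5 lower (2.77%). Liver was the tissue of the highest mean for 26 transporter probes (14.4%, against 6.78% of all probes), 22 of which spanned more than 2 log2 units. For 44 transporter probes the highest mean was that of blood (24.4%, against 27.4% of all probes), but only 5 of these spanned more than 2 log2 units.

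**Figure D1:**
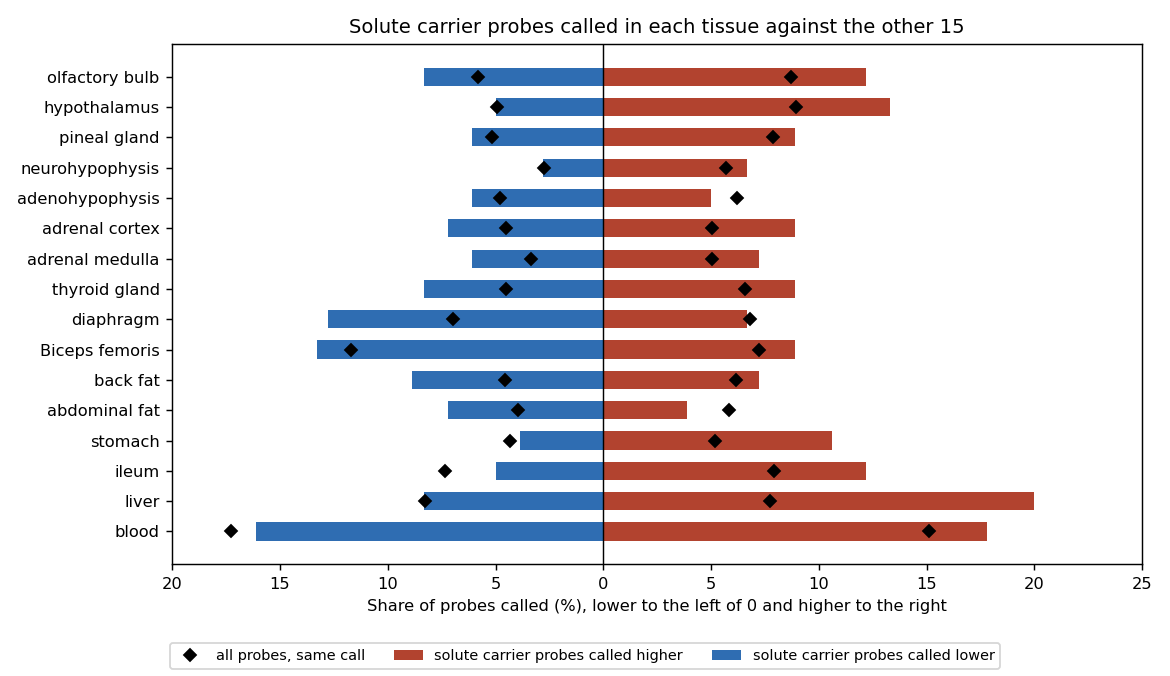
Share of the 180 solute carrier probes (bars) and of all 23935 probes (diamonds) called lower (left of 0) or higher (right of 0) in each of the 16 tissues against the other 15, in percent. The bar for higher calls in liver, 36 probes, reaches farthest beyond its diamond at 7.72%, and in abdominal fat, adenohypophysis and diaphragm the bar for higher calls ends short of its diamond.

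Extreme probes, whose 4 values in a tissue all lie above or all below the other 60 arrays, were found for 52 of the 180 transporter probes (28.9%, beside 26.3% of all probes). Above the other arrays stood 14 in liver (2.88% of all probes), 7 in ileum (2.21%) and 16 in blood (8.43%), and 4 in blood (5.03%) and 2 in liver (0.551%) stood below them. Others above were 2 in thyroid gland (1.45%), 2 in Biceps femoris (0.781%) and 1 each in adenohypophysis (0.819%), diaphragm (0.639%), stomach (0.639%) and hypothalamus (0.577%), and below them lay 1 each in olfactory bulb (0.155%), pineal gland (0.0877%) and diaphragm (0.0543%). A gap of at least 1 log2 unit to the nearest other array was found for 7 named genes: SLC10A1, SLC2A2 and SLC17A1 in liver, SLC5A1, SLC26A3 and SLC7A9 in ileum, and SLC30A3 in thyroid gland.

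Sugar transporters (20 probes of 15 genes, median range 2.04) had different leading tissues, with 15 probes called higher and 9 called lower in some tissue and 5 called nowhere. Of all probes 54.6%, 35.9% and 38.4% were so called, and these shares stand beside the same counts of the groups below. SLC5A1, the sodium-glucose cotransporter SGLT1 of the enterocyte brush border, measured 11.54 in the ileum of the Large White male, 10.40 in the Large White female, 11.64 in the Iberian male and 10.46 in the Iberian female. Both males lay above both females in ileum, as did the mean over 4 ileum marker genes. That mean was 10.52 in the Large White male, 7.87 in the Large White female, 10.08 in the Iberian male and 9.29 in the Iberian female. The part of the tissue's makeup in this order was not tested. For SLC5A1 no array of any other tissue came within 3.27 of the lowest ileum value. Its ileum mean of 11.01 ± 0.67 (SD, n = 4) was 7.17 higher than the mean of the other tissues (SE 0.18, limma adjusted p = 7.7e-37), the largest tissue difference of all transporter probes. Stomach was next with 6.08 ± 0.79, a difference of 1.91 (SE 0.18), and its highest value, 7.14, came from the Iberian female. SLC2A2, the low-affinity glucose transporter GLUT2 of hepatocytes, measured 8.61, 8.09, 8.91 and 8.56 in the livers of the Large White (male, female) and Iberian (male, female) pigs, and from 2.80 to 4.71 on the other 60 arrays. All 4 livers agreed within 0.34 (SD), and the difference to the other tissues was 5.25 (SE 0.12, limma adjusted p = 3.4e-39).

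SLC37A4, which carries glucose 6-phosphate into the endoplasmic reticulum, was high in 2 tissues. Liver measured 10.01, 9.76, 9.76 and 10.09 and Biceps femoris 8.74, 9.08, 8.45 and 8.61, in the same order of animals, and the other arrays did not exceed 7.21. Its differences were 3.83 (SE 0.12) in liver and 2.56 (SE 0.12) in Biceps femoris, and a second probe gave 3.79 and 2.23. SLC2A1, the transporter GLUT1 of the blood-brain barrier, was called higher in hypothalamus by 2.31, olfactory bulb by 2.08, neurohypophysis by 1.54 and pineal gland by 1.26, and lower in diaphragm (-1.98) and adenohypophysis (-1.30). Within the pineal gland the Large White male measured 8.45 and the other 3 arrays 7.36 to 7.45. SLC2A3, the neuronal and blood cell transporter GLUT3, was highest in blood at 9.0 ± 0.54 and was also called higher in adrenal medulla (1.64) and adrenal cortex (1.59).

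SLC2A12 (GLUT12) led in stomach, where the Large White male measured 8.28, the Large White female 7.45, the Iberian male 8.63 and the Iberian female 5.30. The stomach mean of 7.42 ± 1.49 was 3.0 above the other tissues (SE 0.25), or 3.71 without the stomach array of the Iberian female, and Biceps femoris (2.07), diaphragm (1.48) and neurohypophysis (1.35) were called higher as well. SLC2A5, the fructose transporter GLUT5, was called higher in back fat (2.85, SE 0.45), hypothalamus (1.96), abdominal fat (1.44), diaphragm (1.38) and ileum (1.28), with values that differed between the breeds in both fats and in diaphragm, as given further below. SLC2A4, the insulin-responsive transporter GLUT4 of muscle and fat, had 3 probes of narrow range (1.14 to 1.61), all of them higher in blood and Biceps femoris than in most tissues, and on its brightest probe Biceps femoris averaged 6.11 ± 0.13 against 6.75 ± 0.32 in blood. On that probe the call in blood (1.08) fell to 0.98, under the limit of 1, without the Large White female.

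**Figure D2:**
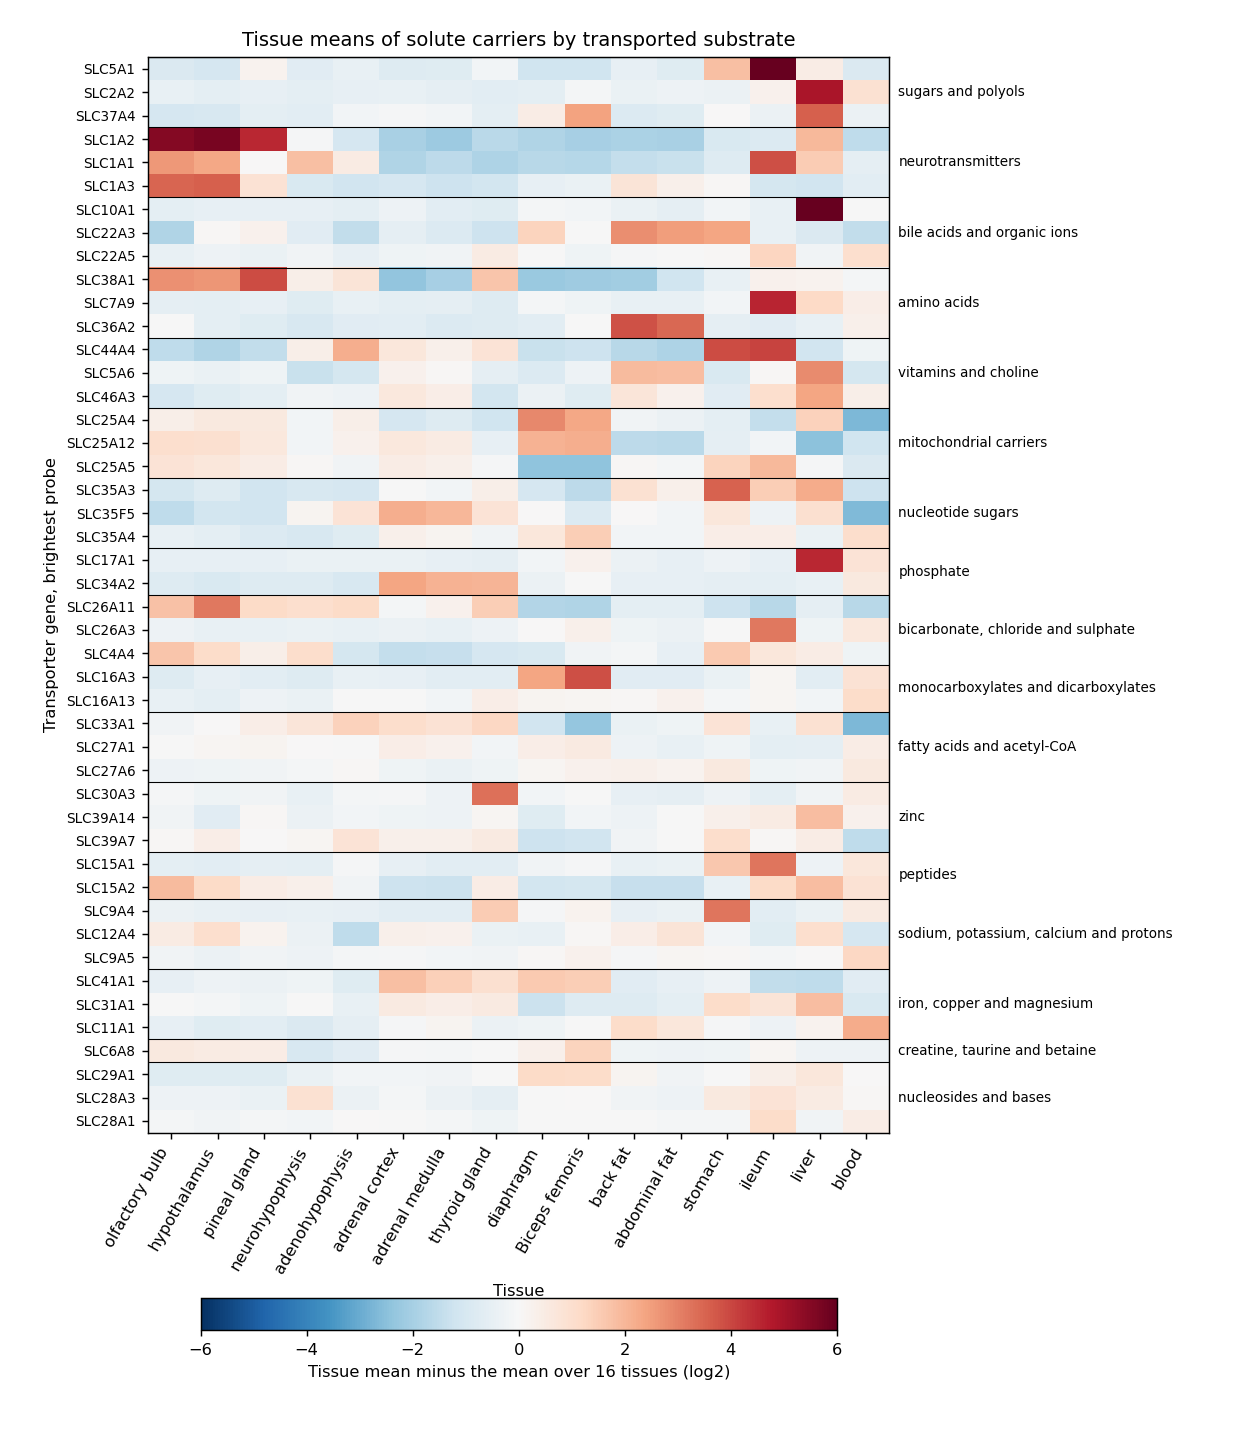
Mean of each of the 16 tissues (columns) minus the mean over all tissues, in log2 units, for up to 3 named genes with the widest range in each substrate group (rows), each by its brightest probe. Colours saturate at 6, which the ileum value of SLC5A1 and the liver value of SLC10A1 exceed; most rows have 1 or a few red cells, and the liver, ileum and brain columns hold the darkest.

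Transporters of neurotransmitters (9 probes of 5 genes, median range 2.46) had their highest mean in hypothalamus or pineal gland for 4 probes, in ileum for 2 of the 5 probes of SLC1A1, and in blood for the other 3. SLC1A2 (GLT-1), which clears most synaptic glutamate into astrocytes, had the second widest range of all transporter probes, 7.87 log2 units. Hypothalamus measured 10.06, 10.51, 9.66 and 10.11 in the Large White (male, female) and Iberian (male, female) pigs, olfactory bulb 9.99, 9.70, 9.60 and 10.21, and pineal gland 9.47, 8.93, 8.46 and 8.72. Liver measured 4.86, 5.37, 7.09 and 7.99 and was called higher by 2.07, and all other arrays were at or below 5.06. Its differences in hypothalamus, olfactory bulb and pineal gland were 6.08, 5.86 and 4.81 (SE 0.24 each, limma adjusted p at most 1.3e-23), and without the Large White male's array the pineal difference was 4.60. SLC1A3 (GLAST), the other astrocytic glutamate transporter, was called higher in hypothalamus (3.84, SE 0.19) and olfactory bulb (3.73, SE 0.19) and in no further tissue. The 3 pineal arrays of the other animals measured 4.47, 5.07 and 5.35, and the Large White male 6.73.

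SLC1A1 (EAAC1), which carries glutamate and aspartate in neurons and across epithelia, was highest in ileum, where the 4 animals measured 10.08, 9.82, 10.62 and 8.96 and the mean was 9.87 ± 0.69. Olfactory bulb followed with 8.50, 8.63, 8.68 and 8.63, and hypothalamus with 7.98, 8.53, 8.03 and 8.81. These differences were 4.13, 2.79 and 2.50 (SE 0.25 each), neurohypophysis (1.94) and liver (1.62) were called higher too, and thyroid gland (-1.99), both adrenal layers, both muscles and both fats (abdominal fat, -1.45) lower. SLC6A4, the serotonin transporter, was at 8.81 in the pineal gland of the Large White female, 8.29 in the Iberian male and 8.12 in the Iberian female, but at 3.12 in the Large White male. The latter lies within the range of the other tissues, and it is the array on which the pineal genes were low and the glia genes high; whether these are connected was not tested. The pineal difference was 3.03 (SE 0.35, limma adjusted p = 1.7e-10) over the 4 arrays and 4.36 without that array. Blood was next for this gene, with 5.66, 5.32, 5.66 and 5.69, and a difference of 1.43. SLC1A6 (EAAT4) was called higher in hypothalamus (1.63), pineal gland (1.56) and olfactory bulb (1.28), at means of at most 4.95.

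Amino acid transporters (19 probes of 13 genes, median range 2.48) had 13 probes called higher and 8 called lower in some tissue. SLC38A1 (SNAT1), a sodium-coupled carrier of glutamine, measured 10.67, 10.31 and 10.27 in the pineal glands of the Large White female, Iberian female and Iberian male and 8.61 in the Large White male. Its pineal difference of 4.18 (SE 0.30) was 4.59 without that last array, and hypothalamus (2.85), olfactory bulb (2.94) and thyroid gland (1.75) were called higher too. The gene was called lower in adrenal cortex (-2.51), diaphragm (-2.36), Biceps femoris (-2.30), back fat (-2.24), adrenal medulla (-2.15) and abdominal fat (-1.29). SLC7A9, the light chain of the cystine and basic amino acid carrier of brush borders, measured 8.66, 7.63, 9.06 and 7.39 in ileum and no more than 5.98 elsewhere, a difference of 4.86 (SE 0.20, limma adjusted p = 2.1e-27).

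Its heavy chain partner SLC3A1 has 2 probes that did not follow each other (r = 0.27 over the 16 tissue means). The second probe measured 7.95, 7.60, 8.16 and 6.86 in ileum, 2.68 above the other tissues (SE 0.18), and liver was 1.79 above them. The brighter probe measured 6.86, 6.66, 6.38 and 6.55 in ileum, 1.31 below the other tissues, and was called higher in pineal gland (2.31), hypothalamus (2.07), adenohypophysis (1.90), neurohypophysis (1.69) and olfactory bulb (1.44). This is the only one of the 39 genes with several probes whose probes were called in opposite directions, in ileum and in liver, and which of them reads the transcript was not tested.

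SLC36A2 (PAT2), a proton-coupled carrier of small amino acids, marked both fats. Back fat measured 7.89, 7.56, 7.98 and 7.70 and abdominal fat 7.76, 7.27, 6.92 and 7.85 in the Large White (male, female) and Iberian (male, female) pigs, and no array of another tissue exceeded 4.75. The differences were 4.05 (SE 0.13, limma adjusted p = 1.2e-31) in back fat and 3.70 (SE 0.13) in abdominal fat. SLC1A5 (ASCT2), a neutral amino acid exchanger, was called higher in abdominal fat (1.81) and back fat (1.59) as well, and in stomach (1.05). SLC7A1 (CAT1), which imports arginine and lysine, was called lower in liver by 2.14 (mean 5.77) and higher in adrenal cortex (1.36), adrenal medulla (1.28), hypothalamus (1.17) and olfactory bulb (1.02). In thyroid gland SLC6A14, a broad neutral and basic amino acid carrier, was called higher by 2.12 and SLC7A4, of the cationic amino acid transporter family, by 1.89. SLC6A14 also reached 6.35 in the stomach of the Iberian female, against 3.31 to 3.55 in the other 3 stomachs. SLC3A2 (the heavy chain 4F2) was called higher in Biceps femoris by 1.17 and lower in thyroid gland (-1.18), and the former came to 0.86, below the limit of 1, without the Biceps femoris array of the Iberian female.

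Peptide transporters had all 4 probes of their 2 genes called higher in ileum, beside 7.93% of all probes, and 3 of the 4 are probes of SLC15A2. SLC15A1 (PEPT1), which takes up the di- and tripeptides of digestion, measured 9.40, 7.31, 8.61 and 7.08 in ileum. Like the mean over the ileum marker genes, it too was higher in both males than in both females. In stomach it measured 5.94, 5.68 and 6.18 in the first 3 animals and 8.25 in the Iberian female, whose stomach array thus lay within the ileum range. The differences were 3.44 (SE 0.22) and 1.74 (SE 0.22). SLC15A2 (PEPT2), the high-affinity peptide carrier of kidney and glia, was called higher on all 3 of its probes in olfactory bulb, liver, hypothalamus and ileum, with 2.04, 1.98, 1.21 and 1.25 on the brightest probe, and lower on all 3 in both fats, both muscles and both adrenal layers.

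**Figure D3:**
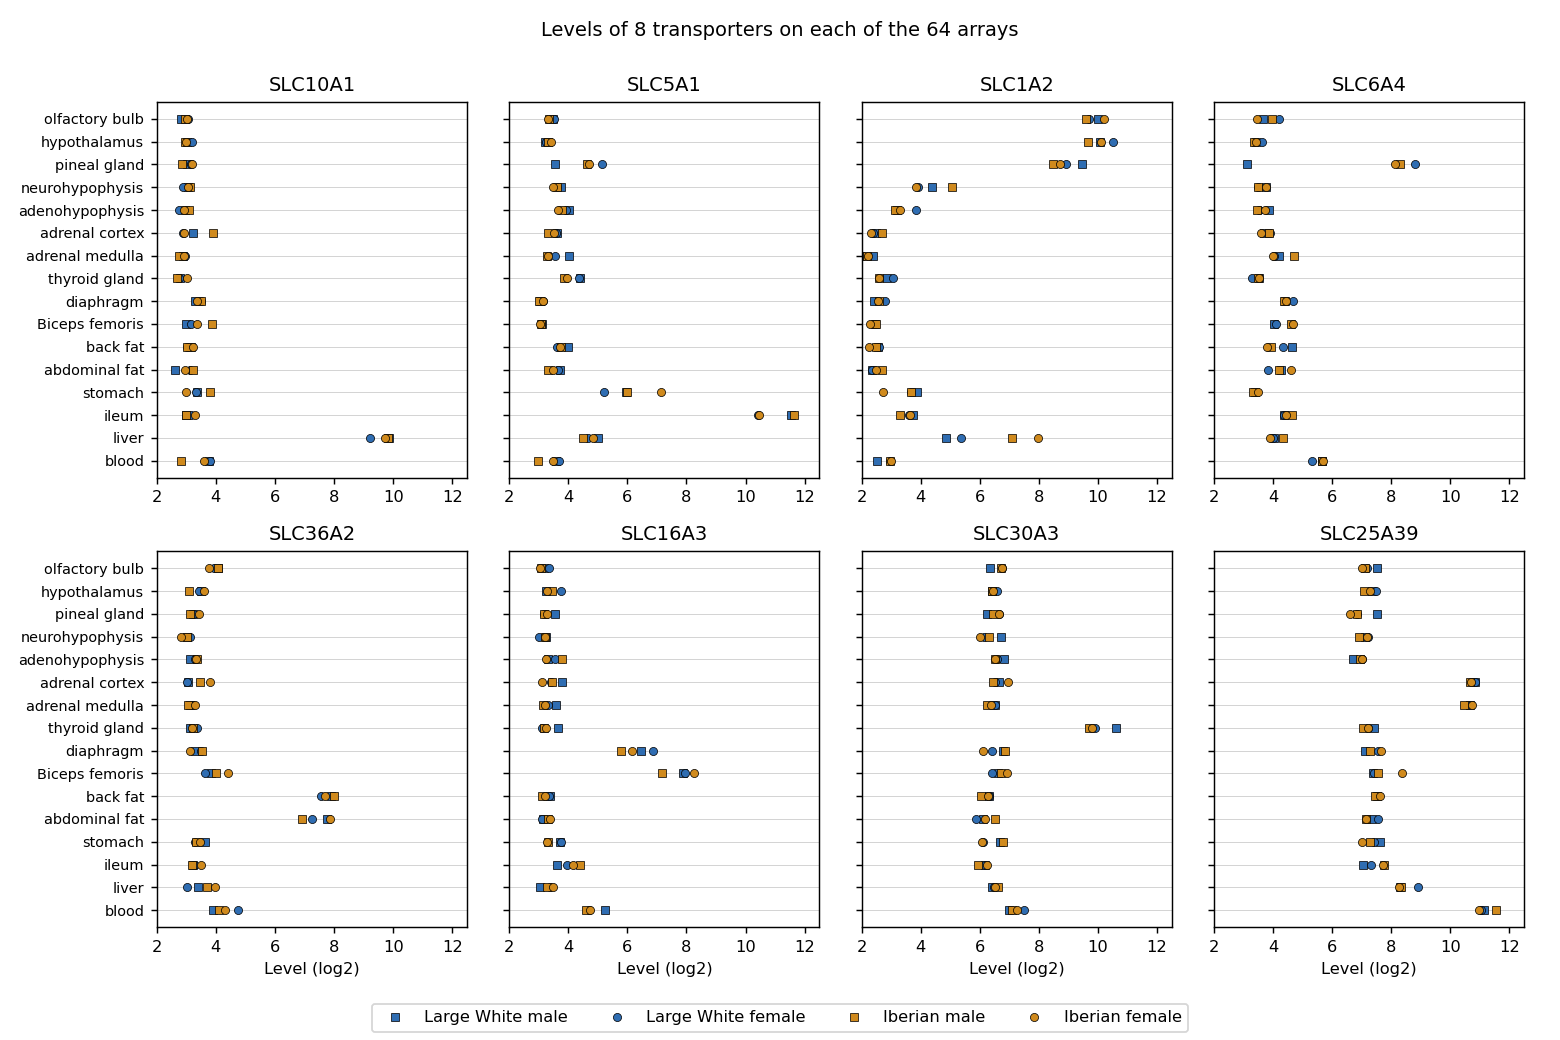
Log2 level of 8 transporters (panels) on each of the 64 arrays, by tissue (rows), with breed as colour and sex as symbol. SLC10A1 stands alone in liver and SLC30A3 in thyroid gland, SLC36A2 is high in both fats and SLC25A39 in blood and both adrenal layers, and the Large White male's pineal gland lies apart for SLC6A4 at 3.12.

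Mitochondrial carriers were the largest group (27 probes of 21 genes, median range 2.79), with 21 probes called higher and 16 lower in some tissue. The adenine nucleotide translocases, which exchange ADP for ATP across the inner membrane, took opposite courses in muscle. SLC25A4 (ANT1) measured 12.68, 12.59, 12.28 and 12.30 in diaphragm and 12.15, 12.09, 11.85 and 11.49 in Biceps femoris, in the order Large White male, Large White female, Iberian male, Iberian female, and 6.35 to 7.19 in blood. SLC25A5 (ANT2) measured 7.04, 7.42, 6.87 and 6.57 in diaphragm and 6.52, 6.82, 6.97 and 7.63 in Biceps femoris, below every array of the other 14 tissues, which began at 8.13. On the former probe the differences were 3.10 and 2.50 (SE 0.20), and on the latter -2.59 and -2.58 (SE 0.13). SLC25A6 (ANT3) was called lower in diaphragm (-1.04) and higher in stomach (1.04), and the stomach value came to 0.96 without the Iberian male.

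Both muscles were also called higher for SLC25A12, the aspartate-glutamate carrier aralar, by 2.32 in Biceps femoris and 2.24 in diaphragm, and for SLC25A11, the oxoglutarate carrier, by 2.0 and 1.95; together these carriers belong to the malate-aspartate shuttle. SLC25A12 was low in liver, where the 4 arrays measured 5.55, 5.55, 4.88 and 5.39, all below the other 60, a difference of -2.65 (SE 0.11). Liver was called higher for SLC25A30 (2.64), SLC25A1, the citrate carrier that supplies carbon for fat synthesis (2.19), SLC25A48 (1.84) and SLC25A20, the carnitine-acylcarnitine carrier (1.15). It was called lower for SLC25A21, the oxoadipate carrier (-2.71), SLC25A24, an ATP-Mg and phosphate carrier (-2.10), and SLC25A36, a pyrimidine nucleotide carrier (-1.40). SLC25A1 was called higher in back fat too (1.18), where SLC25A17, a carrier of the peroxisome membrane, led the group with 9.83, 9.90, 10.12 and 9.75 and a difference of 1.84, and abdominal fat followed with 1.5.

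SLC25A39, a mitochondrial glutathione carrier required for haem synthesis, was high in 3 tissues. Blood measured 11.15, 11.03, 11.54 and 10.97, adrenal cortex 10.85, 10.84, 10.66 and 10.69, and adrenal medulla 10.66, 10.59, 10.45 and 10.73, while the other 13 tissues lay between 6.60 and 8.91. The differences were 3.36, 2.92 and 2.75 (SE 0.13 each, limma adjusted p at most 2.0e-24). SLC25A37 (mitoferrin 1), the iron importer of the same pathway, was called higher in neurohypophysis (1.03, and 0.96 without the Large White female) but not in blood, where it averaged 6.93 ± 0.20. In hypothalamus SLC25A48 was higher by 2.61, SLC25A33, a pyrimidine nucleotide carrier, by 1.80, SLC25A21 by 1.64 and SLC25A14, the uncoupling protein UCP5, by 1.46, the last of which was highest in adenohypophysis (1.76). Blood was called lower for 10 of the 27 probes, beside 17.3% of all probes, among them SLC25A4 (-2.90), SLC25A21 (-2.84), SLC25A17 (-2.35) and SLC25A3, the phosphate carrier (-1.59).

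Carriers of bile acids and organic ions (6 probes of 6 genes) held the transporter with the widest gap to its neighbours. SLC10A1 (NTCP), the sodium-dependent bile acid importer of hepatocytes, measured 9.87, 9.22, 9.83 and 9.73 in liver and between 2.61 and 3.91 on all other arrays, so that 5.31 log2 units separated the lowest liver from the highest other array. The mean of 9.66 ± 0.30 was 6.55 above the other tissues (SE 0.13, limma adjusted p = 1.6e-42). SLC22A3 (OCT3), which carries organic cations such as monoamines, was high in 3 tissues: back fat with 8.09, 7.87, 7.48 and 7.28, abdominal fat with 7.82, 7.99, 7.01 and 6.86, and stomach with 7.30, 6.66, 7.17 and 8.01. In both fats the Large White animals lay above the Iberian ones, as they did in hypothalamus, adenohypophysis, adrenal cortex and liver. In neurohypophysis and diaphragm they lay below them. By chance alone 2 against 2 animals part in either direction at a rate of 0.333. The gene was not called between the breeds, over all tissues or within a tissue, in the comparisons given further below. Back fat, abdominal fat and stomach were 2.96, 2.67 and 2.53 above the other tissues (SE 0.24). Diaphragm was called higher by 1.45, and olfactory bulb (-1.92), blood (-1.58), adenohypophysis (-1.57) and thyroid gland (-1.33) lower. SLC22A5 (OCTN2), the carnitine importer, was called higher in ileum (1.39) and blood (1.09).

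Phosphate carriers were 2 probes. SLC17A1 (NPT1), a phosphate and urate carrier, measured 8.09, 7.58, 8.54 and 8.25 in liver and at most 4.68 elsewhere, a difference of 4.82 (SE 0.11, limma adjusted p = 2.8e-40). SLC34A2, a sodium-phosphate cotransporter of epithelia, was called higher in adrenal cortex (2.51), adrenal medulla (2.22) and thyroid gland (2.19, SE 0.17), with thyroid values of 6.80, 7.91, 6.33 and 5.62.

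Carriers of bicarbonate, chloride and sulphate (7 probes of 5 genes, median range 3.12) had 5 probes called higher and 3 called lower in some tissue, and 2 called nowhere. SLC26A11, a sulphate and chloride carrier, measured 9.99, 10.03, 10.22 and 9.83 in hypothalamus, above every other array, and 8.62 ± 0.28 in olfactory bulb. Among pineal glands it was 9.68 in the Large White male against 7.35 to 7.56 in the other 3. Its difference in hypothalamus was 3.37 (SE 0.21), and 2.72 on a second probe. SLC26A3 (DRA), the chloride-bicarbonate exchanger lost in congenital chloride diarrhoea, measured 6.65, 6.07, 7.31 and 6.34 in ileum and no more than 4.17 elsewhere, a difference of 3.37 (SE 0.11). SLC4A4, a sodium-bicarbonate cotransporter, was called higher in olfactory bulb (1.78), stomach (1.66), hypothalamus (1.19) and neurohypophysis (1.14). Its second probe, with no tissue mean above 3.77, was called nowhere. SLC26A6, an anion exchanger, was called higher in adrenal cortex (1.73), Biceps femoris (1.44) and adrenal medulla (1.37) and lower in thyroid gland (-1.45) and back fat (-1.06).

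Sodium, potassium, calcium and proton carriers (8 probes of 6 genes, ranges of 0.67 to 3.84) had 1 strongly tissue-bound member. SLC9A4 (NHE4), a basolateral sodium-proton exchanger of the gastric parietal cell, measured 6.67, 6.31, 7.0 and 5.62 in stomach and 5.64, 4.84, 4.23 and 4.27 in thyroid gland, with all other arrays at or below 3.90. These were 3.40 and 1.63 above the other tissues (SE 0.14 each). SLC12A4 (KCC1), a potassium-chloride cotransporter, was called higher in hypothalamus (mean 6.31) and lower in adenohypophysis (-1.64) and blood (-1.08). Its call in liver (1.09) had values with an SD of 1.06 and was lost without the Large White female (0.75) and without the Iberian female (0.92).

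Zinc transporters (14 probes of 8 genes, median range 2.03) had 5 probes called higher in liver and 5 in blood, beside 7.72% and 15.1% of all probes. The liver count holds several probes each of SLC39A14 and SLC30A5. SLC30A3 (ZnT3), known for loading zinc into synaptic vesicles, was highest in thyroid gland: 10.62, 9.91, 9.70 and 9.80 in the Large White (male, female) and Iberian (male, female) pigs. No other array exceeded 7.51, olfactory bulb and hypothalamus included, and the thyroid difference was 3.51 (SE 0.12, limma adjusted p = 1.3e-29). A second probe of this gene gave no call in thyroid gland, where it averaged 6.98 ± 0.50 against 7.58 ± 0.19 in blood. In liver SLC39A14 (ZIP14), which also imports iron, measured 7.29, 7.35, 6.97 and 7.40 and at most 6.0 elsewhere, a difference of 1.99 (SE 0.12), with 2.99 on its second probe. SLC39A5 (ZIP5) was called higher in liver (1.80), ileum (1.21) and blood, whose mean of 7.45 was second to that of liver. SLC39A4 (ZIP4), the intestinal importer, was called higher in ileum (1.15, and 0.96 without the Iberian male) and in blood. Its means there were 7.29 and 7.18. SLC30A5 (ZnT5) was called higher in liver (1.03, and 0.99 without the Large White male) and lower in Biceps femoris (-1.70). SLC39A7 (ZIP7), of the endoplasmic reticulum, was called lower in blood, diaphragm and Biceps femoris, by 1.20 to 1.64.

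Carriers of iron, copper and magnesium (13 probes of 5 genes, median range 1.39) had 8 probes called nowhere. SLC41A1, a magnesium carrier, was called higher in adrenal cortex (1.94), diaphragm (1.68), Biceps femoris (1.56) and adrenal medulla (1.53) and lower in liver (-1.63) and ileum (-1.57). SLC31A1 (CTR1), the copper importer, measured 9.34, 8.91, 9.17 and 9.14 in liver, all above the other 60 arrays, a difference of 1.96 (SE 0.13), and was called higher in stomach (1.17) and lower in diaphragm (-1.36). Its second probe, with no tissue mean above 4.09, was called nowhere. SLC11A1 (NRAMP1), the metal transporter of phagosomes in macrophages and neutrophils, measured 6.85, 6.84, 6.73 and 6.77 in blood, a difference of 2.37 (SE 0.12), and back fat followed with 1.16. SLC11A2 (DMT1), the intestinal iron importer, was called higher in liver (1.36) and olfactory bulb (1.01) and lower in back fat (-1.09) on its brightest probe. Its other probes were called nowhere.

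Carriers of vitamins and choline (14 probes of 9 genes) all had a call. SLC44A4, which carries choline and thiamine pyrophosphate, measured 10.10, 10.04, 10.34 and 8.89 in ileum, 9.72, 9.07, 9.35 and 10.64 in stomach, and 7.88, 7.70, 7.91 and 8.46 in adenohypophysis, and no more than 6.79 elsewhere. The differences were 4.33, 4.17 and 2.35 (SE 0.18 each), and 3.82 in stomach without the array of the Iberian female. SLC5A6, the sodium-dependent multivitamin transporter of biotin and pantothenate, measured 9.72, 10.30, 8.05 and 9.53 in liver, 8.50, 8.84, 8.49 and 8.05 in back fat and 8.85, 9.45, 7.35 and 7.88 in abdominal fat, with differences of 3.04, 2.05 and 1.96 (SE 0.19 each). SLC23A2 (SVCT2), which takes up vitamin C, was called higher in adrenal cortex (2.39) and adrenal medulla (2.29) alone. The riboflavin transporter SLC52A2 was called higher in the same tissues, by 1.37 and 1.23. SLC46A3, a lysosomal carrier, led in liver (2.50) and was called higher in ileum (1.09), and the proton-coupled folate transporter SLC46A1 was called higher in liver (1.35).

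Among carboxylate carriers, SLC16A3 (MCT4), which exports lactate from glycolytic fibres, measured 7.87, 7.95, 7.18 and 8.25 in Biceps femoris and 6.47, 6.86, 5.78 and 6.16 in diaphragm, and at most 5.24 elsewhere. The differences were 4.14 and 2.54 (SE 0.13 each, limma adjusted p = 8.9e-33 and 3.4e-23). SLC6A8, the creatine transporter, measured 8.51, 7.93, 7.79 and 8.84 in Biceps femoris, above the other 60 arrays, a difference of 1.43 (SE 0.16), and was called lower in neurohypophysis (-1.01). SLC33A1, which carries acetyl-CoA into the endoplasmic reticulum, was called higher in adenohypophysis (1.5), thyroid gland (1.33) and adrenal cortex (1.13) and lower in blood (-2.87), Biceps femoris (-2.45) and diaphragm (-1.20). SLC27A6, a fatty acid carrier, differed by probe: the brightest spanned 1.02 and was called nowhere, whereas the second was called higher in stomach (2.65), abdominal fat (2.09), adenohypophysis (1.49) and back fat (1.12).

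Nucleotide sugar carriers (15 probes of 10 genes, median range 1.78) supply the Golgi with substrates for glycosylation. SLC35A3, which carries UDP-N-acetylglucosamine, measured 8.81, 8.54, 8.72 and 8.88 in stomach, above the other 60 arrays, a difference of 3.78 (SE 0.18), and liver (2.38) and ileum (1.58) were called higher as well. SLC35F5, sorted here by its family, was called higher on all 3 probes in both adrenal layers, with 11.30, 11.11, 11.12 and 11.22 in the cortex and 10.61, 11.14, 11.02 and 11.22 in the medulla on its brightest probe (differences 2.32 and 2.12, SE 0.17). On the same probe blood measured 6.88, 6.32, 5.73 and 6.55, below the other 60 arrays (-2.81). SLC35A4 was called higher in Biceps femoris (1.56) and blood (1.13). Nucleoside carriers were 3 probes: SLC29A1 (ENT1) was called higher in diaphragm (1.21) and Biceps femoris (1.16), SLC28A1 (CNT1) in ileum (1.16, but 0.98 without the Large White male and 0.93 without the Iberian male), and SLC28A3 (CNT3) nowhere. The difference of SLC28A3 in neurohypophysis was 0.98, just below the limit, and it was called without the Large White male (1.13), without the Iberian female (1.19) and without the stomach array of the Iberian female (1.03). Its mean there, 3.85, was its highest and lay under the 95th percentile of the reporter controls (4.89), so it gives little information.

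Of the 3 genes named after a transporter, SLC9A3R1 (the scaffold NHERF1 of brush borders) was called higher in ileum (2.54), blood (2.32), stomach (1.69) and liver (1.59), SLC9A3R2 (NHERF2) in stomach (1.84) and back fat (1.43), and SLC2A4RG in back fat (1.13) and liver (1.04). Of the 5 probes with several gene entries, 4 were called higher somewhere (54.6% of all probes), 3 of them in blood (15.1%). Among the 39 genes with several probes, 9 had probes that all correlated above 0.9 over the 16 tissue means and 11 had a pair below 0.5. These 11 were SLC1A1, SLC3A1, SLC4A4, SLC6A14, SLC7A7, SLC11A2, SLC25A33, SLC30A5, SLC31A1, SLC33A1 and SLC38A9. A value for a gene with several probes is therefore that of the brightest probe unless another is named.

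Of the 32 transporter probes called higher in blood, 28 differed by less than 2 log2 units, 11 had a mean in the other tissues under 4.89, and 15 were extreme probes. The 64 reporter controls were a median of 0.51 higher in blood than in the other tissues and 0.40 higher in Biceps femoris, and 12 of them were at least 1 log2 unit higher in blood, where no tissue besides Biceps femoris (2) had any. The median difference in blood was 0.34 over the 180 transporter probes and 0.11 over all probes. The part of this background in the smaller calls was not tested. The 4 transporter probes higher by 2 or more were those of SLC25A39 (3.36), SLC11A1 (2.37), SLC9A3R1 (2.32) and SLC2A3 (2.27).

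Related tissues were compared directly. Stomach and ileum, both gut epithelia, differed at 38 transporter probes: 18 were higher in stomach, beside 5.92% of all probes, and 20 were higher in ileum, beside 6.93%. Ileum was higher for the brush border carriers SLC5A1 (stomach minus ileum -4.93, SE 0.25), SLC7A9 (-4.74, SE 0.27), SLC1A1 (-4.65, SE 0.34), SLC26A3 (-3.20, SE 0.15) and SLC15A1 (-1.59, SE 0.30). Stomach was higher for SLC9A4 (3.84, SE 0.19), SLC2A12 (3.74, SE 0.34), SLC22A3 (2.80, SE 0.32), SLC35A3 (2.06, SE 0.24), SLC25A30 (1.65, SE 0.26) and SLC2A1 (1.48, SE 0.23). SLC44A4, led by both tissues, was not called between them. Without the stomach array of the Iberian female the differences were -5.32 for SLC5A1, 4.10 for SLC9A4 and 4.44 for SLC2A12. The mean over 4 genes of T and NK cells was 8.56 to 9.02 on ileum arrays and 5.61 to 7.14 on stomach arrays, and the 1 B cell gene measured 7.53 to 9.42 and 3.32 to 3.72, and their part in these differences was not tested.

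**Figure D4:**
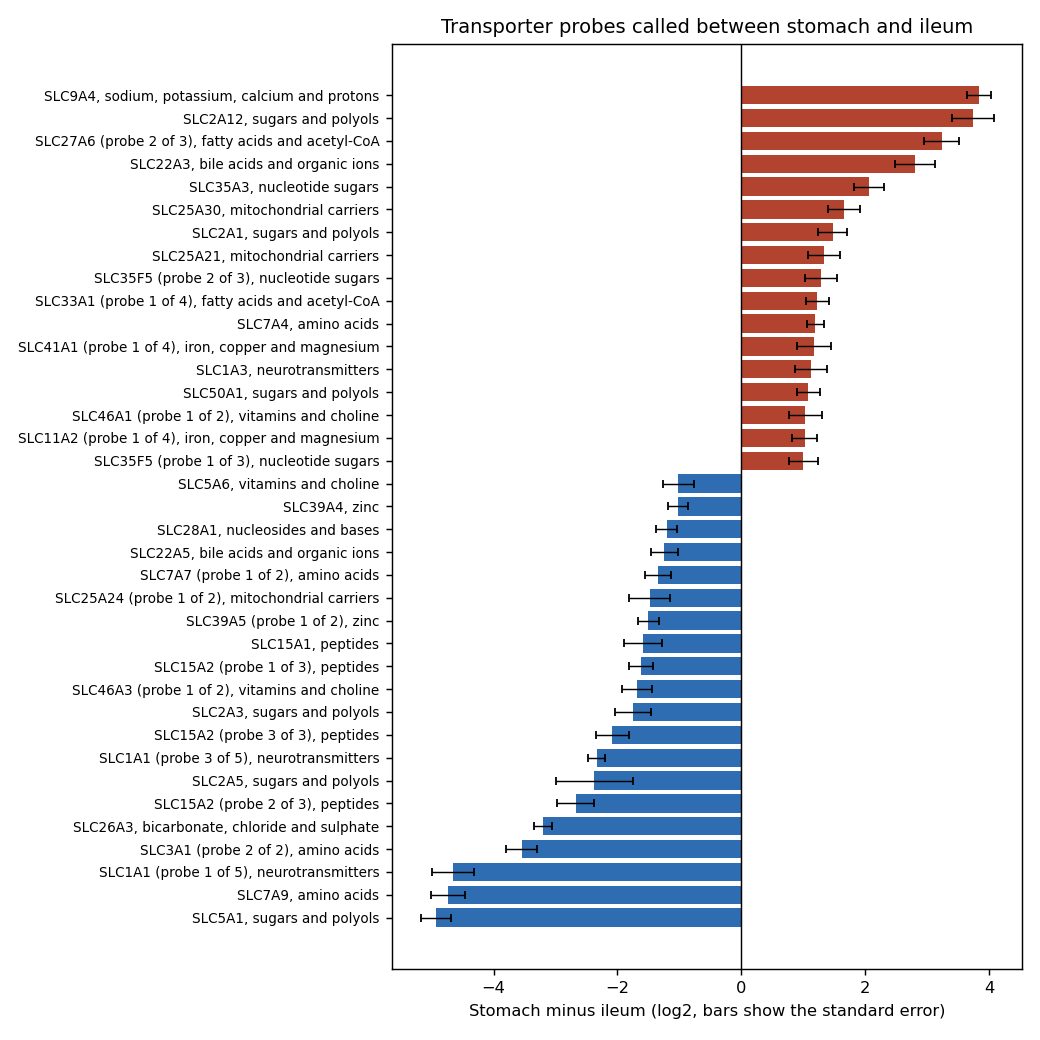
Stomach minus ileum in log2 units (bars) with the standard error from limma (whiskers) for the 37 probes of transporter genes called between these tissues; SLC9A3R2, not a transporter, is left out. Red bars, up to 3.84 for SLC9A4, are higher in stomach and blue bars, down to -4.93 for SLC5A1, are higher in ileum.

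Diaphragm, a mainly oxidative muscle, and Biceps femoris, a mainly glycolytic one, differed at 8 transporter probes. Biceps femoris was higher at 6, beside 0.911% of all probes, which were both probes of SLC37A4 (-1.96 and -1.73) and those of SLC16A3 (-1.5, SE 0.18), SLC3A2 (-1.16), SLC2A1 (-1.04) and SLC6A8 (-1.03). Diaphragm was higher at 2, beside 4.09%, SLC22A3 (1.36, SE 0.32) and SLC33A1 (1.17, SE 0.18). Without the Biceps femoris array of the Iberian female 3 and 1 remained called, and SLC37A4 (-1.98), SLC16A3 (-1.33) and SLC22A3 (1.34) were among them. On that array SLC2A1 measured 6.31, against 5.43 to 5.47 on the other 3.

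Adenohypophysis and neurohypophysis, the 2 lobes of the pituitary gland, differed at 11 transporter probes, 4 higher in the anterior lobe (2.82% of all probes) and 7 higher in the posterior one (4.3%). SLC44A4 (1.87, SE 0.25), SLC25A17 (1.04) and SLC25A14 (1.02) were higher in adenohypophysis, the last of which came to 0.97 without the Large White female and 0.94 without the Iberian male, below the limit of 1. SLC2A1 (-2.66, SE 0.23), SLC4A4 (-2.11, SE 0.30), SLC2A12 (-2.09, SE 0.34) and SLC1A1 (-1.31) were higher in neurohypophysis. For SLC2A1 the 4 adenohypophyses measured 5.38, 5.55, 5.18 and 4.98 and the 4 neurohypophyses 7.46, 8.03, 8.17 and 8.07, without overlap. The mean over 7 adenohypophysis genes was 11.42 to 12.25 on the anterior lobe's arrays and 6.95 to 9.18 on those of the posterior lobe, against 3.71 to 5.27 on those of the other tissues. The mean over 5 neurohypophysis genes was 9.44 to 9.67 on the posterior lobe's arrays and 6.64 to 7.36 on those of the anterior lobe. It was 6.73 to 9.16 in hypothalamus and 6.28 to 6.92 in pineal gland. POMC stands in the lists of both lobes, with a mean of 12.58 in adenohypophysis and 13.28 in neurohypophysis. The part of tissue from the neighbouring lobe in the transporter differences was not tested.

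Olfactory bulb and hypothalamus differed at 7 transporter probes, 2 higher in olfactory bulb (2.24% of all probes) and 5 higher in hypothalamus (1.7%). SLC25A48 measured 4.61, 4.54, 4.37 and 4.78 in olfactory bulb and 8.02, 8.08, 6.68 and 7.40 in hypothalamus, a difference of -2.97 (SE 0.24), the largest between these tissues. SLC22A3 (-1.89), both probes of SLC26A11 (-1.39 and -1.57) and SLC2A5 (-1.95, SE 0.62) were also higher in hypothalamus, the last of which lost its call without any 1 of 3 animals (limma adjusted p of 0.074 to 0.14). SLC25A37 was higher in olfactory bulb on both probes (1.45 and 1.83). The glutamate transporters SLC1A2, SLC1A3 and SLC1A1 were not called between the 2 tissues.

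No transporter probe was called between back fat and abdominal fat, beside 0.0794% and 0.155% of all probes called higher and lower, and the differences ran from -0.91 to 1.32. At an unadjusted limma p under 0.05, a limit not counted over all probes, there were 10, and no adjusted p was under 0.05. Between adrenal cortex and adrenal medulla none was called either, beside 0% and 0.765%, the differences ran from -0.62 to 0.46, and 5 had an unadjusted limma p under 0.05 and none an adjusted one. The marker genes of the adrenal cortex overlapped between these arrays, as given above, while the mean over 4 adrenal medulla genes, 10.06 to 11.06 on medulla arrays and 7.71 to 9.95 on cortex arrays, did not. Their part in this was not tested.

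Breed and sex were compared over all tissues with the z-score of the study's methods, which places the difference of a probe among those of all probes and does not measure the error between animals. No transporter probe was called between Large White and Iberian, beside 0.389% of all probes called higher and 0.614% lower, nor between males and females, beside 0.238% and 0.155%. At an unadjusted z-score p under 0.05 there were 5 and 3. limma on the means of the 4 animals called none after adjustment and had 26 and 9 at an unadjusted p under 0.05, and limma on the 64 arrays, which treats the tissues of an animal as independent, called 19 (10.6%) and 2 (1.11%), beside 3045 (12.7%) and 348 (1.45%) of all probes. The transporters with the largest breed z-scores were SLC2A3 (Large White minus Iberian 0.44, z = 2.58), SLC31A2, a low-affinity copper carrier (-0.40, z = -2.35), SLC25A21 (0.39, z = 2.31), SLC22A2, an organic cation carrier (-0.35, z = -2.09), and SLC46A1 (0.34, z = 2.03). The highest tissue mean of SLC22A2 was 3.94, under the 95th percentile of the reporter controls (4.89). SLC2A3 averaged 7.34, 6.86, 6.64 and 6.67 over the 16 tissues in the Large White (male, female) and Iberian (male, female) pigs, with the Large White male highest and the other 3 animals close together. The largest sex z-scores were those of SLC3A1 on its brighter probe (male minus female 0.40, z = 2.56) and SLC31A2 (-0.38, z = -2.48).

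A breed difference can also lie in single tissues. After the data had been seen, Large White minus Iberian in each tissue was therefore set against the mean of that difference in the other 15 tissues, in limma with tissue, tissue by breed and sex. With 2 animals per breed the p-values measure the spread between arrays, and an exact permutation test of 2 against 2 animals could not go below 0.333. Of 2880 pairs of transporter probe and tissue, 24 were called (0.833%), beside 0.654% of all pairs, on 20 probes of 18 genes. Liver had 6, beside 0.815% of all probes called there, Biceps femoris 6 (5.69%), abdominal fat 3 (0.322%), stomach 3 (0.765%), ileum 2 (0.343%), and adenohypophysis (0.0251%), back fat (0.159%), diaphragm (0.0752%) and thyroid gland (0.125%) 1 each.

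SLC2A5, the fructose transporter, differed in 3 tissues. Abdominal fat measured 4.76 and 4.59 in the Large White male and female and 8.28 and 8.89 in the Iberian male and female, and back fat 6.86 and 6.29 against 8.95 and 9.70. In diaphragm the order was turned, with 8.13 and 7.46 against 4.31 and 6.40. The breed groups did not overlap in any of the 3 tissues. These tissues were singled out by the call, so the separation adds no further support. Relative to the other tissues the differences were -3.85 (SE 0.55, limma adjusted p = 0.0001), -2.61 (SE 0.55, limma adjusted p = 0.027) and 2.92 (SE 0.55, limma adjusted p = 0.0089). Leaving out 1 animal kept the call in abdominal fat each time, whereas those in back fat and diaphragm were each lost in 3 of the 4 cases.

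In liver the glutamate transporter SLC1A2 measured 4.86 and 5.37 in the Large White animals and 7.09 and 7.99 in the Iberian ones, and the glutamine carrier SLC38A1 4.62 and 5.13 against 7.53 and 7.82. SLC7A9 had the opposite order, with 5.73 and 5.98 against 4.02 and 3.57. The differences were -2.55 (SE 0.32), -2.85 (SE 0.49) and 2.07 (SE 0.29), with limma adjusted p of 3.5e-06, 0.00077 and 3.6e-05. SLC46A1, the folate carrier, measured 8.70 and 8.19 against 6.74 and 7.05 (1.29, SE 0.23), and SLC4A4 5.53 and 5.52 against 6.69 and 6.73 (-1.28, SE 0.33). Left out in turn, no single animal ended the calls of SLC1A2 and SLC7A9, while that of SLC38A1 was lost without the Iberian male (limma adjusted p = 0.068), that of SLC46A1 without the Large White male (limma adjusted p = 0.2) and that of SLC4A4 without any 1 animal. In these leave-outs a breed is held by 1 animal, whose spread is taken to be that of the others. In Biceps femoris all 6 calls, and in stomach all 3, were lost without the array of the Iberian female in that tissue.

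**Figure D5:**
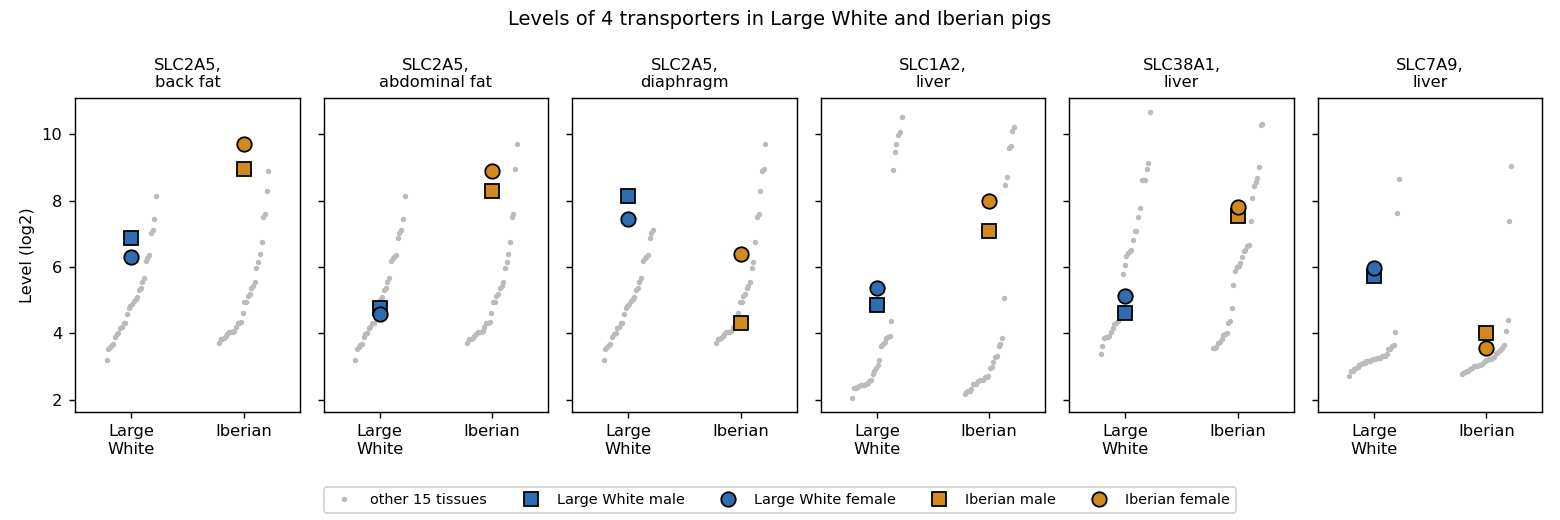
Log2 level of 4 transporters in Large White (left) and Iberian (right) pigs, with large symbols for the tissue named above each panel and grey points, spread sideways in order of level, for the other 15 tissues. SLC2A5 is higher in the Iberian animals in both fats and lower in diaphragm, SLC1A2 and SLC38A1 are higher in the Iberian livers, and SLC7A9 is lower in them.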

How the data were processed

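Total RNA of 64 samples (16 tissues of 4 pigs) was hybridised to Affymetrix porcine arrays by the authors, who read signals with GCOS, checked array quality and normalised all arrays together by RMA in libaffy; the deposited table holds these log2 values per probe set, with versions not stated. RMA draws values near background together, so differences of dim probes are understated. Array number, 4 per tissue, limits the precision.

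From 24123 probe sets 188 control probe sets were left out. Symbols came from the platform annotation, which is old; 173 of the 180 transporter probes were found in RefSeq by gene ID and none had changed its symbol. limma 3.58.1 in R 4.3.3 (lmFit, contrasts.fit, eBayes) was fitted to all 23935 probes and 64 arrays with tissue, breed and sex. Contrasts were each of the 16 tissues against the mean of the other 15, and 6 pairs of related tissues. Calls required a Benjamini-Hochberg adjusted p under 0.05 and 1 log2 unit. Summaries were made with Python 3.11.15, pandas 2.3.3 and numpy 2.4.6. Scripts were tested on simulated data.

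The members, substrate groups and other lists were chosen with earlier results of these data known. By rule the named genes were a list of 63 textbook transporters (33 with a probe), the leading called genes of each tissue and pair, extreme probes with a gap of 1 or more, the 4 widest genes of each substrate and the 6 largest z-scores of breed and of sex, each by its brightest probe; SLC1A5, SLC1A6, SLC7A1, SLC7A4, SLC25A1, SLC25A3, SLC25A11, SLC25A24, SLC25A30, SLC25A33, SLC25A36, SLC39A5 and SLC52A2, and probes other than the brightest, were picked with their values in view. The same animal gave a sample of every tissue, so replicate numbers pair the samples; deviations of the same animal in 2 tissues had a mean r of 0.189 over 480 pairs, above 0.1 in 385. Alternatives were a block for the animal, tissue alone, leaving out each animal or 1 of 3 arrays, centring on 1000 steady probes, a filter on dim probes, 1 probe per gene, and other limits. The breed comparison within tissues, and leaving out the Biceps femoris or stomach array of the Iberian female, were chosen after seeing the data. No detection calls were in the table.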

Additional observations from a re-analysis of the deposited data

Results flagged for a closer look

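Of 156 groups of 4 arrays (1 transporter in 1 tissue), 10 held an array far from the other 3 by Dixon's test, which chance alone gives in about 1 group of 20. In the Large White male's pineal gland, whose glia genes were high and pineal genes low, SLC2A1 measured 8.45 against 7.36 to 7.45, SLC26A11 9.68 against 7.35 to 7.56 and SLC6A4 3.12 against 8.12 to 8.81; the part of the tissue's makeup was not tested. In the Iberian female SLC6A14 measured 6.35 in stomach against 3.31 to 3.55, SLC2A1 6.31 in Biceps femoris against 5.43 to 5.47, SLC25A37 6.58 in olfactory bulb against 7.43 to 7.47 and SLC38A1 9.02 in hypothalamus against 8.57 to 8.64. The remaining arrays were SLC7A4 in the thyroid gland of the Large White male (7.11 against 6.72 to 6.75), SLC6A4 in the blood of the Large White female (5.32 against 5.66 to 5.69) and SLC1A5 in the back fat of the Iberian male (9.36 against 9.06 to 9.10).

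In 24 cases the breed difference (Large White minus Iberian) in 1 tissue differed from its mean in the other 15. In liver it was -2.55 for SLC1A2, -2.85 and -1.94 for 2 probes of SLC38A1, -1.28 for SLC4A4, 1.29 for SLC46A1 and 2.07 for SLC7A9. SLC2A5 gave -3.85 in abdominal fat, -2.61 in back fat and 2.92 in diaphragm, and abdominal fat had 1.37 for SLC5A6 and 1.19 for SLC9A3R2. Ileum had -1.11 and -1.21 for 2 probes of SLC44A2, thyroid gland 1.59 for SLC34A2 and adenohypophysis 1.88 for the second probe of SLC27A6. In Biceps femoris the values were 1.56 for SLC25A24, 1.05 for SLC30A5, 1.06 for SLC35F5, -1.12 for SLC35F6, -1.03 for SLC41A1 and -1.12 for SLC46A1, and in stomach 1.30 for SLC25A30, 1.01 for SLC46A1 and -1.68 for SLC6A14. Of the 24 calls 3 were kept whichever animal was left out, SLC1A2 and SLC7A9 in liver and SLC2A5 in abdominal fat, and 21 were lost at least once.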

How the results depend on the processing

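Of 148 differences of named genes 145 were called, and 130 of these kept their call under every alternative run. Many of them were named for being the largest calls, so these counts say nothing on the stability of the other calls. With the animal as a replicate block, no named difference changed its call and the calls summed over tissues stayed at 285 higher and 226 lower. Without the limit of 1 log2 unit those sums were 698 and 939, and with a limit of 2 they were 94 and 32. With 1 probe per gene, adrenal cortex had 10 transporter probes higher in place of 16, and olfactory bulb 1 in place of 2 against hypothalamus. Without the Biceps femoris array of the Iberian female, neurohypophysis had 3 lower in place of 5, and diaphragm against Biceps femoris 1 higher in place of 2 and 3 lower in place of 6; leaving out each animal gave 1 to 4 and 3 to 7. Leaving out each animal gave 7 to 10 lower in pineal gland in place of 11, 66 to 75 extreme transporter probes in place of 54 (counting a probe once per tissue and direction), and 10 to 51 breed differences within tissues in place of 24. By its definition the count of extreme probes cannot fall when arrays are left out, so its rise says nothing on stability. A gap of 0.5 left 18 extreme probes. limma on the 64 arrays called 19 transporter probes between breeds (10.6%, beside 12.7% of all probes) and 2 between sexes (1.11%, beside 1.45%), in place of 0. The median range of 2.24 was 2.17 to 2.30 when each animal was left out, 2.18 without blood and 2.62 without dim probes. SLC25A24 in Biceps femoris was -0.18 to 3.31 when each animal was left out, in place of 1.56, and turned to -0.18 without the Iberian female, also where only that array was left out. The cause was not tested. With 4 arrays per tissue, and no detection calls, low values near the reporter controls limit what can be read of dim probes.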
